A study of Mus musculus with 2 samples.

Results

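The AMPA and kainate receptor subunits are 9 genes: Gria1 to Gria4, which encode the AMPA receptor subunits GluA1 to GluA4, and Grik1 to Grik5, which encode the kainate receptor subunits GluK1 to GluK5. They were taken from the deposited gene list by symbol, and each symbol had 1 row among the 32285 genes listed. RNA was measured with 10x Visium, which captures polyadenylated RNA from tissue on a slide of barcoded spots and counts it per spot as unique molecular identifiers (UMIs). The samples were 2 fresh-frozen brain sections, 10 µm thick, from wild-type C57BL/6 mice, both labelled ZT12; they are called section 1 and section 2 here. No mutant, drug or other time point was compared, and age and sex are not given in the sources used here. The labels do not say whether the sections came from separate animals. The section was a term in the fit described below, so the p-values leave out an overall difference between the sections. They measure how far group differences varied between these 2 sections, estimated over all groups and drawn towards the spread of all genes. That spread may be technical.

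AMPA and kainate receptors are ion channels opened by glutamate, the main excitatory transmitter of the brain, and each is an assembly of 4 subunits. AMPA receptors carry most fast excitatory transmission. The GluA2 subunit, once its RNA has been edited, makes the channel poorly permeable to calcium. Among kainate receptor subunits, GluK1 to GluK3 can form channels of their own, whereas GluK4 and GluK5 need one of those 3 as a partner. In the hippocampus kainate receptors are best known from the mossy fibre synapses that granule cells of the dentate gyrus make on CA3 pyramidal cells.

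In GRCm38.p6 RefSeq places Gria1 at chr11:57011571-57330244, Gria2 at chr3:80681450-80804227, Gria3 at chrX:41400819-41678601 and Gria4 at chr9:4417893-4796234. The kainate genes lie at chr16:87895901-88290863 (Grik1), chr10:49093680-49790161 (Grik2), chr4:125490259-125714173 (Grik3), chr9:42518182-42945000 (Grik4) and chr7:25009849-25075694 (Grik5). Of the 9 genes, 6 had a promoter in the RefSeq tables used here (GRCm38.p6), each 300 bases long, from 250 before to 50 after an annotated start. Only the Gria4 window reaches past the outer end of its gene as placed above. The windows of Gria2, Grik2, Grik3, Grik4 and Grik5 lie wholly inside the gene, so the start used is not the gene's outer end. The 4 printed below belong to genes whose levels went different ways across the brain: Gria2 and Gria4 within the AMPA family, and Grik3 and Grik4 within the kainate family. Sequences are given 5′ to 3′ on the gene's strand, in lower case, with the GC box letters GGGCGG or their complement CCGCCC in capitals.
Gria2 promoter, chr3:80802786-80803085, minus strand: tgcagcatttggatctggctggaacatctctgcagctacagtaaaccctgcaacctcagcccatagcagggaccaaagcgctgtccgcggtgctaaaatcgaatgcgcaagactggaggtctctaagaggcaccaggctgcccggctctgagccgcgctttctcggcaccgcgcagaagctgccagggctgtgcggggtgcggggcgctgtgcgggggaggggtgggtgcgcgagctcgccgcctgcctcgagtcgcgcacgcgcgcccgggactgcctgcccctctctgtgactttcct
Gria4 promoter, chr9:4796185-4796484, minus strand: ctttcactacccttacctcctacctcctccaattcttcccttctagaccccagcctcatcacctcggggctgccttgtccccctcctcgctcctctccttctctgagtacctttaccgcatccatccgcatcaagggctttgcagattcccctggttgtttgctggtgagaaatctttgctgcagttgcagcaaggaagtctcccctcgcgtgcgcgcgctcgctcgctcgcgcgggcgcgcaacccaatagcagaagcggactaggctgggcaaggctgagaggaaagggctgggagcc
Grik3 promoter, chr4:125490446-125490745, plus strand: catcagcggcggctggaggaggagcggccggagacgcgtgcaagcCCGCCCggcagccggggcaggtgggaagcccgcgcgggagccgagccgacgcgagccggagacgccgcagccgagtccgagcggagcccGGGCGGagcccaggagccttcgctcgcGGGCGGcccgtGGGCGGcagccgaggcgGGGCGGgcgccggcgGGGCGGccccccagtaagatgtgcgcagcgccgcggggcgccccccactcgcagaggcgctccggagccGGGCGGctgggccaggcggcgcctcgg
Grik4 promoter, chr9:42944322-42944621, minus strand: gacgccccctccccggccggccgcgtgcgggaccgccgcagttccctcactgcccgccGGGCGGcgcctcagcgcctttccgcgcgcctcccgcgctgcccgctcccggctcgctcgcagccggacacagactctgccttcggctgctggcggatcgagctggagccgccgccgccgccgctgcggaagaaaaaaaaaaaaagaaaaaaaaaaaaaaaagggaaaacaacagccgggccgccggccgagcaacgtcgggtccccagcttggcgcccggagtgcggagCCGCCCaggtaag

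The GC box letters occurred 7 times in the Grik3 window and 2 times each in those of Grik4 and Grik5. They did not occur in the windows of Gria2, Gria4 and Grik2, while 35.7% of the 32851 promoters of the same length held them on either strand. GC content was 82% for Grik3 and 59.7% for Gria4, against a median of 52.7% over all promoters. The letters of the cyclic AMP response element (TGACGTCA) and of the E-box (CACGTG) were searched on both strands and were in none of the 6 windows; 1.79% and 7.15% of all promoters held them. These are matches of letters in a short window and carry no measurement of binding.

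Spots were grouped by anatomical marker genes, none of them a receptor subunit. A spot joined the marker list on which it scored highest, if the score passed a threshold and led the next list, so each group is a range cut from a score and is named by its markers. A minimum of 500 UMIs left 3030 of 3167 spots in section 1 (median 18127 UMIs) and 2531 of 2533 in section 2 (median 21555). Of these, 1922 and 1632 joined a group. In section 1, 830 of all kept spots lay within 0.1 of the score threshold, and 675 did in section 2. The 2 barcode lists shared 1965 barcodes; Visium slides reuse barcodes between arrays. A spot can hold several cells of different types.

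The 9 groups with at least 30 spots in each section and passing check markers were tested: spots high in markers of deep isocortex (148 in section 1 and 105 in section 2), dentate gyrus (72 and 53), CA1 (54 and 58), CA3 (100 and 92), thalamus (242 and 195), hypothalamus (34 and 226), brainstem (183 and 60), fibre tracts (186 and 170) and meninges (92 and 33). Superficial isocortex (189 and 57), striatum (16 and 126), choroid plexus (28 and 53) and, in section 1, the granular layer (147) and the Purkinje and molecular layer (60) of the cerebellum were described with no test. In section 1 only 1 of 3 check markers of superficial isocortex was raised. The lists for claustrum and olfactory bulb failed their check markers in both sections, and their spots were not used. Over the tested groups, median UMIs per spot ran from 10780 in fibre tract spots of section 1 to 32620 in its deep isocortex spots. Striatum spots of section 1, which were not tested, had a lower median of 9466.

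All 9 genes were measured in every tested group and passed the filter on low counts. Over the kept spots, Gria1 had 13265 UMIs in section 1 and 14849 in section 2, Gria2 12569 and 12318, and Gria3 7033 and 6209. Gria4 had 3510 and 2573 UMIs. Of the kainate genes Grik5 was the most counted, with 6882 and 9184 UMIs, and Grik1 the least, with 754 and 1068. Levels are given as CPM, the UMIs of a gene per 1000000 UMIs of its spot group. CPM from 3′-end capture ranks groups for 1 gene; it does not rank genes by the amount of receptor.

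A single edgeR fit over 18 sums (9 groups in 2 sections) set each group against the mean of the remaining 8, and a gene was called where its p, adjusted by Benjamini-Hochberg over the 12684 genes tested, was below 0.05. Of the 81 member tests, 45 were called (55.6%), 23 higher and 22 lower, against 19.4% of all gene tests in the same comparisons. The AMPA genes accounted for 26 of 36 tests and the kainate genes for 19 of 45. Without the section 1 sums the AMPA genes had 8 higher and 7 lower calls, against 12 and 14, and the kainate genes 7 higher and 3 lower, against 11 and 8; without the section 2 sums the kainate genes had 5 lower calls. The comparisons use the same 18 sums and so are not independent of each other. Where calls are lost or counted without a section, only the sum of the group under test from that section was left out. In a pair of groups, this was the sum of the first group named. The remaining sum of that group was assumed to vary like the others, and the other groups kept their sums.

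**Figure D1:**
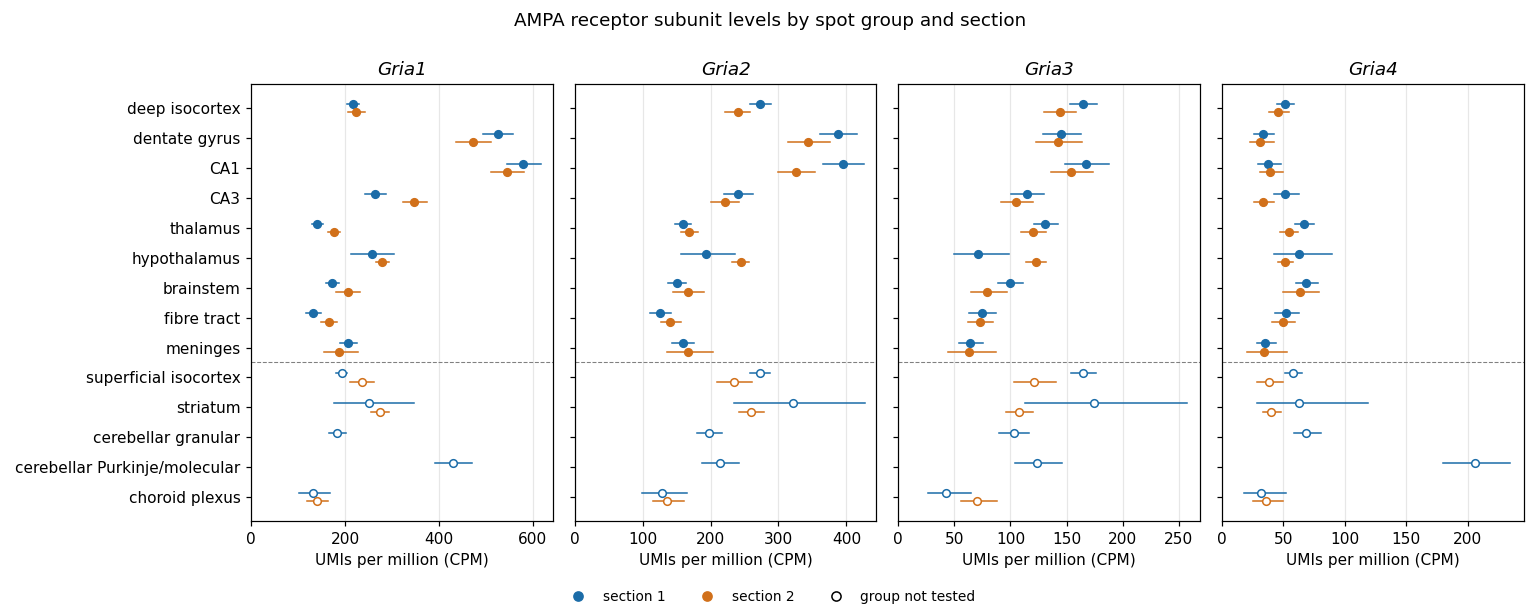
Levels of Gria1 to Gria4 (x axis, CPM) in 14 spot groups (y axis) and 2 sections; points are values and bars 95% exact Poisson intervals, which cover counting error only, and open points below the dashed line are groups with no test. Gria1 lies at 579 and 545 in CA1 and at 141 and 176 in thalamus spots, while Gria4 is higher in thalamus than in CA1 spots. Gria4 is highest in the Purkinje and molecular layer spots, where Gria1 reaches 429.

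Gria1, whose product GluA1 is a main subunit of receptors moved to the synapse in plasticity, was highest, among the tested groups, in the hippocampus. CA1 spots had 579 CPM (section 1) and 545 CPM (section 2). Dentate gyrus spots followed with 525 and 473 CPM, and CA3 spots had 265 and 348 CPM. Thalamus spots held 141 and 176 CPM, and fibre tract spots 132 and 165 CPM. The sections of CA1, of the dentate gyrus and of CA3 formed 3 ranges that did not overlap, whereas brainstem, thalamus and fibre tract overlapped with their neighbours in the order. In CA1 spots Gria1 was higher by 1.27 ± 0.07 (log2 fold change ± SE, adjusted p = 9.4e-16), and in dentate gyrus spots by 1.03 ± 0.07 (adjusted p = 2.2e-13). It was lower in thalamus spots (-0.75 ± 0.08, adjusted p = 3.8e-09) and in fibre tract spots (-0.77 ± 0.09, adjusted p = 1.5e-08).

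The other Gria1 calls were smaller: 0.29 ± 0.08 in CA3 spots, -0.26 ± 0.08 in deep isocortex, -0.51 ± 0.09 in brainstem and -0.33 ± 0.10 in meninges. The difference in CA3 was 0.14 in section 1 and 0.44 in section 2, and the call was lost without section 2 (0.12, adjusted p = 0.806). The brainstem call was lost without section 1 (-0.43, adjusted p = 0.105), the meninges call without section 2 (-0.24, adjusted p = 0.146), and the deep isocortex call without section 1 or without section 2 (-0.30 and -0.22, adjusted p = 0.157 and 0.177). The hypothalamus spots, at 256 and 279 CPM, were not called (0.04 ± 0.09).

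Gria2, whose edited product GluA2 limits calcium entry, followed Gria1 over much of the brain with a narrower range. It had 395 and 325 CPM in CA1 spots and 387 and 344 CPM in dentate gyrus spots; these ranges overlapped, and both lay above every other tested group. At the low end were fibre tract spots, with 126 and 141 CPM. Gria2 was higher in CA1 (0.81 ± 0.08, adjusted p = 1.7e-10) and in the dentate gyrus (0.79 ± 0.08, adjusted p = 2.3e-10), and lower in thalamus (-0.42 ± 0.08, adjusted p = 5.7e-05) and fibre tract (-0.67 ± 0.09, adjusted p = 1.7e-07). The brainstem (-0.53 ± 0.09) and meninges (-0.44 ± 0.10) calls were lost without section 1 (-0.41 and -0.43, adjusted p = 0.128 and 0.155). The call in deep isocortex (0.26 ± 0.07) was lost in 7 of 12 alternatives, among them leaving out section 1 (0.17, adjusted p = 0.50).

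Gria3, the X-linked AMPA subunit gene, had its highest levels in CA1 (167 and 154 CPM) and deep isocortex (165 and 144 CPM), whose ranges overlapped. Meninges spots had the lowest, 64.1 and 63.2 CPM. It was higher in CA1 (0.59 ± 0.09, adjusted p = 8.4e-06) and deep isocortex (0.53 ± 0.08, adjusted p = 6.3e-06). It was lower in fibre tract (-0.55 ± 0.11, adjusted p = 7.8e-05) and meninges (-0.87 ± 0.13, adjusted p = 1.5e-06). The remaining 3 calls were each lost without either section: dentate gyrus (0.36 ± 0.10; 0.39 and 0.33 without section 1 and section 2, and between 0.15 and 0.19, not called, with stricter spots or without the fibre tract and meninges groups), brainstem (-0.31 ± 0.10; -0.49 and -0.21) and thalamus (0.24 ± 0.08; 0.22 and 0.27). The thalamus difference also vanished when a spot had to lead the next list by 0.25 (-0.01, adjusted p = 0.944), so no direction is claimed for Gria3 there.

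Over the tested groups Gria4 mostly ran against Gria1 and Gria2, though each of these genes was called lower in meninges. This subunit, GluA4, is known from fast-spiking interneurons, relay neurons of the thalamus and brainstem, and Bergmann glia of the cerebellum. Its level was 68.8 and 63.3 CPM in brainstem spots and 66.7 and 54.5 CPM in thalamus spots, against 33.4 and 31.3 CPM in dentate gyrus spots. Gria4 was higher in thalamus (0.46 ± 0.09, adjusted p = 1.4e-04) and brainstem (0.55 ± 0.11, adjusted p = 2.9e-04), and lower in the dentate gyrus (-0.66 ± 0.14, adjusted p = 3.3e-04) and meninges (-0.47 ± 0.15, adjusted p = 0.014). Without section 1 the calls in brainstem (0.62, adjusted p = 0.0816), dentate gyrus (-0.59, adjusted p = 0.0897) and meninges (-0.42, adjusted p = 0.504) were lost, and the thalamus call held. In CA1 spots the level was 37.9 and 39.5 CPM and the difference, -0.31 ± 0.13, was not called (adjusted p = 0.098).

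**Figure D2:**
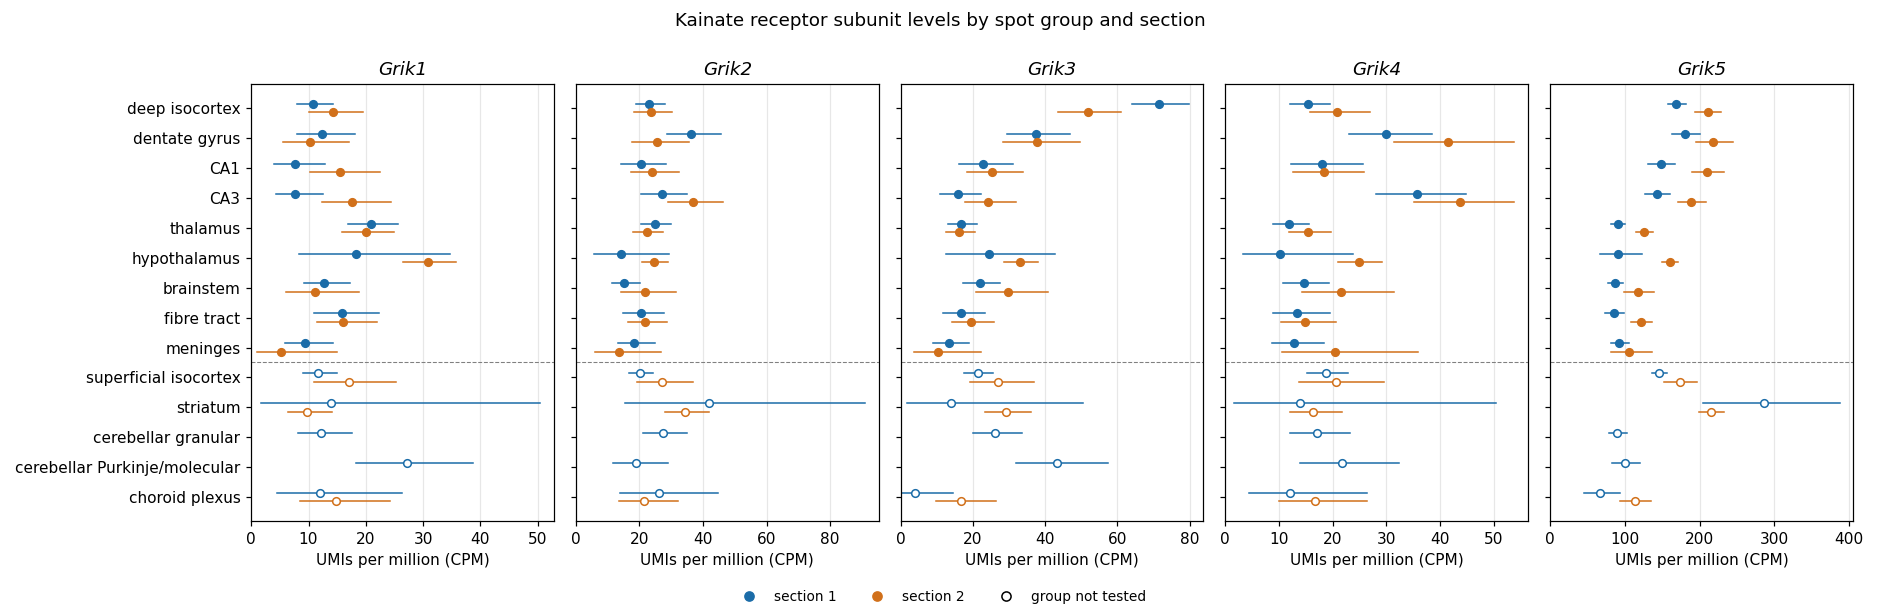
Levels of Grik1 to Grik5 (x axis, CPM; the 5 axes differ) in the same 14 spot groups and 2 sections, with 95% exact Poisson intervals for counting error only. Grik3 stands out in deep isocortex and Grik4 in CA3 and dentate gyrus spots, and the orange points of section 2 lie right of the blue points of section 1 in every tested group for Grik5.

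Among the kainate genes, Grik1 encodes GluK1, a subunit much studied in interneurons and sensory neurons. Few UMIs were behind it. Its highest levels were in hypothalamus spots, with 18.3 and 30.9 CPM, and in thalamus spots, with 20.9 and 20.0 CPM. The section 1 hypothalamus value rests on 9 UMIs in 34 spots. Grik1 was higher in hypothalamus (1.05 ± 0.18, adjusted p = 7.2e-05) and thalamus (0.64 ± 0.16, adjusted p = 0.0027). The first call was lost without section 2 (0.57, adjusted p = 0.794) and the second without section 1 (0.44, adjusted p = 0.262). In meninges spots Grik1 had 22 UMIs in section 1 and 3 in section 2.

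Grik2 encodes GluK2, a subunit that forms channels by itself and with GluK4 or GluK5. It varied least among the kainate genes, with Grik5 next: its highest group mean was 1.99 times its lowest. CA3 spots had 27.0 and 36.8 CPM and dentate gyrus spots 36.4 and 25.5 CPM, so the order of these groups differed between the sections. The only call was in the dentate gyrus (0.45 ± 0.17, adjusted p = 0.045), and it was lost in 9 of 12 alternatives. In section 2 alone the difference was 0.09, and without section 1 it was 0.06 (adjusted p = 0.948). The difference in CA3 was of like size (0.52 ± 0.16) and missed the threshold (adjusted p = 0.058).

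Grik3, the gene of GluK3, had its highest level in deep isocortex. There the sections had 71.6 and 51.8 CPM. Dentate gyrus spots came next with 37.4 and 37.9 CPM, and meninges spots were lowest with 13.3 and 10.3 CPM. Neither the deep isocortex range nor the dentate gyrus range overlapped that of the next group down. Superficial isocortex spots, which were not tested, had 21.4 and 27.0 CPM, below deep isocortex in both sections. The deep isocortex difference of 1.5 ± 0.12 (adjusted p = 1.8e-12) was the largest of all 81 and held in all 12 alternatives, between 1.13 and 1.77.

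Grik3 was also higher in the dentate gyrus (0.61 ± 0.17, adjusted p = 0.0054) and lower in thalamus (-0.63 ± 0.15, adjusted p = 0.0017) and meninges (-1.05 ± 0.24, adjusted p = 0.0010). The dentate gyrus call was lost without section 1 or section 2 (0.63 and 0.60, adjusted p = 0.142 and 0.0621). The thalamus call was lost without section 2 (-0.59, adjusted p = 0.0536) and the meninges call without section 1 (-1.41, adjusted p = 0.128).

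Grik4 encodes GluK4, the high-affinity subunit long known from CA3. Its level was 35.7 and 43.7 CPM in CA3 spots and 29.99 and 41.5 CPM in dentate gyrus spots. These 2 ranges overlapped, and both lay above the remaining 7 groups, which had between 10.2 and 24.8 CPM. Grik4 was higher in CA3 (1.11 ± 0.14, adjusted p = 6.7e-07) and in the dentate gyrus (0.86 ± 0.16, adjusted p = 5.4e-05), and both calls held in all 12 alternatives. CA1 spots had 18.1 and 18.3 CPM and were not called (-0.17 ± 0.19). It was lower in thalamus (-0.60 ± 0.15, adjusted p = 0.0019) and fibre tract (-0.46 ± 0.18, adjusted p = 0.047), and leaving out section 1 or section 2 ended both calls (thalamus -0.60 and -0.58, fibre tract -0.58 and -0.33).

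Grik5, the gene of GluK5, was the most counted kainate subunit in every tested group. Its levels were 181 and 219 CPM in the dentate gyrus, 169 and 211 CPM in deep isocortex, 148 and 210 CPM in CA1 and 143 and 189 CPM in CA3. The other groups lay between 84.9 and 92.8 CPM in section 1 and between 106 and 160 CPM in section 2. Section 2 was higher than section 1 in 9 of 9 groups, with a median ratio of 1.36. No 2 neighbours in the order of groups were free of overlap, but these ranges include that difference between the sections. Within each section the order was dentate gyrus, deep isocortex, CA1 and CA3, with the other groups below. Grik4 was also higher in section 2 in 9 of 9 groups, with a median ratio of 1.35. Per the file headers the sections were processed with different Space Ranger versions, so version and section cannot be told apart.

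With the section as a term in the fit, Grik5 was higher in the dentate gyrus (0.55 ± 0.08, adjusted p = 1.1e-06), deep isocortex (0.51 ± 0.07, adjusted p = 5.6e-07), CA1 (0.40 ± 0.08, adjusted p = 2.4e-04) and CA3 (0.30 ± 0.08, adjusted p = 0.017). It was lower in thalamus (-0.37 ± 0.07), brainstem (-0.50 ± 0.09), fibre tract (-0.36 ± 0.08) and meninges (-0.43 ± 0.10). Without the section term (no replicate block) none of these calls held, while the fold changes stayed between 0.31 and 0.54 in the 4 higher groups and between -0.52 and -0.34 in the 4 lower ones. Over the kainate genes that fit made 5 higher and 2 lower calls, against 11 and 8 with the term. The CA3 call was also lost without either section (0.29 and 0.32), and it fell to 0.19 without the fibre tract and meninges groups and at a score of 0.7. The CA1 difference fell to 0.23 at a lead of 0.25 (adjusted p = 0.0546), and the brainstem and fibre tract calls without section 1 (-0.48 and -0.32, adjusted p = 0.0583 and 0.0543).

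**Figure D3:**
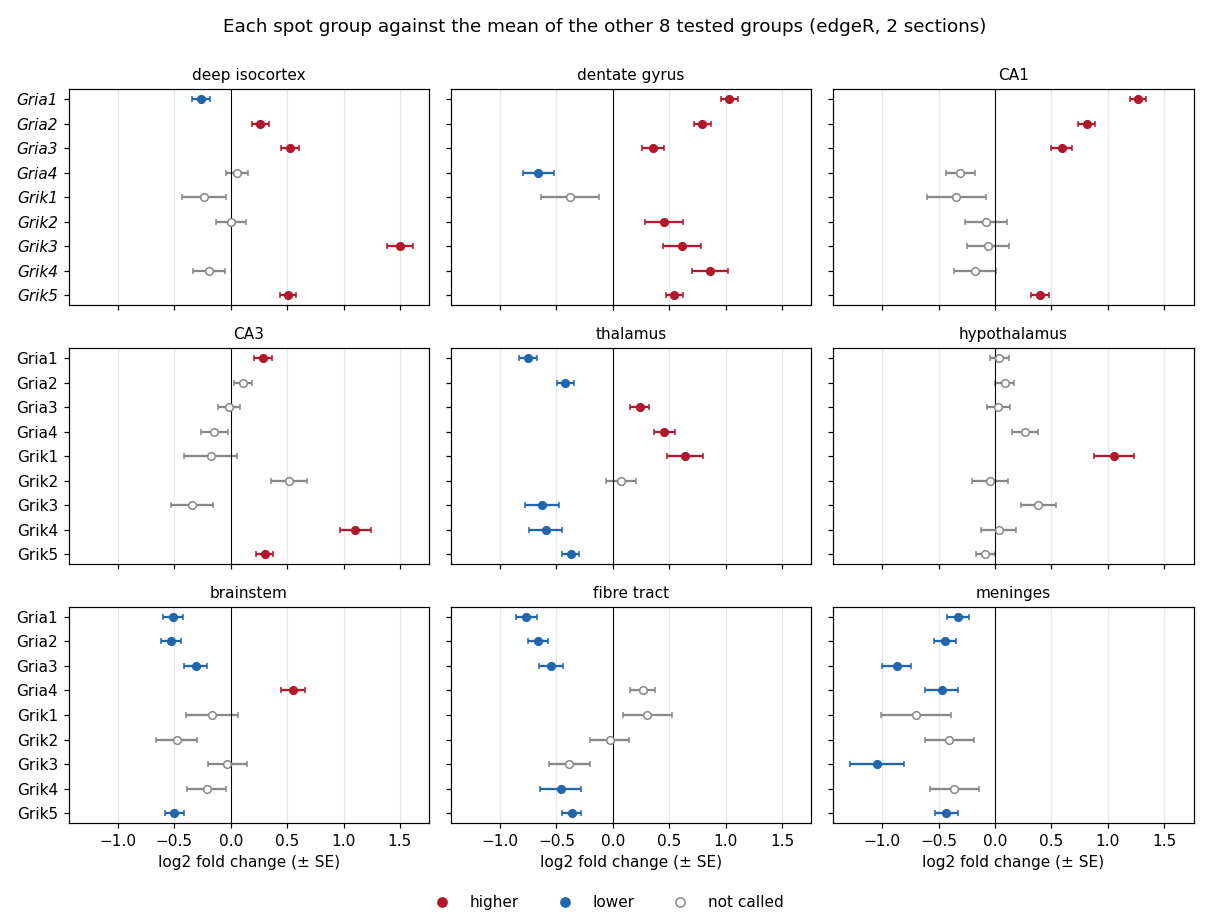
Log2 fold change (x axis, ± SE) of each member gene (y axis) in each of the 9 tested groups against the mean of the other 8, from the edgeR fit; red points were called higher, blue points lower and open grey points not called. Dentate gyrus spots have 7 genes in red, and fibre tract and meninges spots have none.

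Read by group, the dentate gyrus spots had 7 of 9 members higher and Gria4 lower, where 13.4% of all genes were called higher and 11.3% lower (24.6% in all). Without section 1, or at a score of 0.7, the higher calls of Gria3, Grik2 and Grik3 were lost and 4 of the 7 were kept, and without section 1 the Gria4 call was lost as well. CA1 had 4 higher and none lower, with 10.1% and 8.38% of all genes (18.5% in all): Gria1, Gria2, Gria3 and Grik5. All 4 were kept without either section. At an unadjusted p under 0.05 edgeR had 1 member lower in CA1, and DESeq2 called 0. CA3 had 3 higher, Gria1, Grik4 and Grik5, where 3.47% of all genes were called higher and 0.457% lower (3.93% in all); without section 2, or at a score of 0.7, only Grik4 was kept. Deep isocortex had 4 higher and 1 lower, with 11.3% and 9.62% of all genes (20.9% in all), and its lower call was lost without either section.

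Cell type markers moved with these groups. Of the 4 excitatory neuron markers, Slc17a7 and Nrgn were higher in deep isocortex, and they and Camk2a in the dentate gyrus, CA1 and CA3. Slc17a6 was lower in deep isocortex, dentate gyrus and CA1. The summed level of the 4 was 4240 and 4715 CPM in CA1 spots and 3114 and 4140 CPM in CA3 spots. Of the 6 astrocyte markers 4 were lower in deep isocortex, 4 lower and 1 higher in the dentate gyrus, and 5 lower in CA1. Of the 6 inhibitory neuron markers 2 were higher and 1 lower in deep isocortex, 4 lower in the dentate gyrus and 1 higher in CA1. Of the 5 endothelial markers 4 were lower in deep isocortex, 3 in the dentate gyrus and 3 in CA1. No astrocyte, inhibitory or endothelial marker was called in CA3. The part of these markers in the subunit differences was not tested. In spots that mix cells, fewer cells of a type and less RNA per cell cannot be told apart.

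Thalamus spots had 3 members called higher and 5 lower, with 12.6% and 11.5% of all genes (24.1% in all). The higher calls were Gria4, Grik1 and Gria3, the last without a settled direction as given above; Gria4 alone was kept without section 1, and 3 of the 5 lower calls without section 2. Slc17a6 was higher there, Nrgn and Camk2a were lower, and 5 of 6 inhibitory neuron markers were lower. Brainstem spots had Gria4 higher and 4 members lower, with 6.65% and 6.42% of all genes (13.1% in all), and all 5 calls were lost without section 1. In the brainstem 4 of 6 inhibitory and 4 of 6 astrocyte markers were higher and 1 of each lower, and 3 of 4 excitatory markers were lower and 1 higher. Hypothalamus spots had 1 call, Grik1, higher, with 5.11% of all genes higher and 4.17% lower (9.28% in all), which was lost without section 2. There 4 of 6 inhibitory markers were higher and 1 lower. The sections of this group, with 34 and 226 spots, were unlike in some members. The Gria3 log2 fold change was -0.71 in section 1 and 0.18 in section 2, that of Grik4 -0.78 and 0.08 and that of Grik2 -0.67 and 0.06. Those of Gria1 (0.05 and 0.05) and Gria4 (0.35 and 0.23) lay closer together.

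In the fibre tract 5 members were lower and none higher, with 15.4% of all genes lower and 16.9% higher (32.3% in all), and 3 of the 5 were kept without section 1. In meninges 6 were lower and none higher, with 11.9% and 15.8% (27.7% in all), and 3 of the 6 were kept without section 1. At an unadjusted p under 0.05 edgeR had 1 member higher in the fibre tract and 0 in meninges, and DESeq2 called 0 higher in either. Excitatory markers were lower in 3 of 4 cases in both groups. Astrocyte markers were higher in 5 of 6 cases in the fibre tract (1375 and 1137 CPM summed) and in 6 of 6 in meninges (1943 and 1684 CPM). Microglia markers were higher in 5 and 4 of 5 cases, oligodendrocyte precursor markers in 4 and 3 of 5, with 1 lower in meninges, and endothelial markers in 2 and 5 of 5. The part of these markers in the lower subunit levels was not tested, and no marker of the 6 cell type lists was at 0 in any tested group.

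Pairs of regions were then set against each other. Where a section was left out of a pair, only the sum of its first group was dropped: CA3, dentate gyrus or thalamus. CA1 and deep isocortex kept the sums of both sections. CA3 spots differed from CA1 spots in 4 of 9 members, where 2.8% of all genes were called higher and 3.43% lower (6.23% in all). Gria1 (-0.87 ± 0.10, adjusted p = 3.4e-07), Gria2 (-0.63 ± 0.10, adjusted p = 1.0e-04) and Gria3 (-0.54 ± 0.13, adjusted p = 0.0056) were lower in CA3. Grik4 was higher there (1.14 ± 0.21, adjusted p = 3.8e-04). Gria4 was not called between these fields (0.14 ± 0.17). The Gria3 call was lost without section 1 or section 2 (-0.57 and -0.52, adjusted p = 0.0625 and 0.0683), and the Grik4 call without the section term (1.14, adjusted p = 0.0768). The AMPA auxiliary subunit genes Shisa7 (-0.77 ± 0.14), Cnih2 (-0.68 ± 0.12) and Cacng3 (-0.54 ± 0.15) were lower in CA3 than in CA1 too, and the Cacng3 call was lost without section 1 (-0.46, adjusted p = 0.263).

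Dentate gyrus and CA1 spots differed in 1 member, Grik4, which was higher in the dentate gyrus by 0.92 ± 0.22 (adjusted p = 0.0053), where 3.75% of all genes were called higher and 3.56% lower (7.31% in all). That call was lost without section 2 (0.87, adjusted p = 0.0632) and without the section term. The Gria1 difference was -0.21 ± 0.10 and was not called (adjusted p = 0.247), and that of Grik3 was 0.60 ± 0.23 (adjusted p = 0.120).

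Thalamus and deep isocortex spots differed in 6 members, where 11.5% of all genes were called higher and 11.3% lower (22.8% in all). Grik3 was lower in thalamus the most (-1.89 ± 0.16, adjusted p = 2.1e-11), followed by Grik5 (-0.78 ± 0.09), Gria2 (-0.61 ± 0.10) and Gria1 (-0.44 ± 0.10). Grik1 (0.78 ± 0.22, adjusted p = 0.0084) and Gria4 (0.36 ± 0.12, adjusted p = 0.025) were higher in thalamus. Without section 1 the Gria1 (-0.31), Grik1 (0.57) and Gria4 (0.30) calls were lost, and the Gria4 call also without section 2 (0.41). The Grik5 call was lost without the section term (-0.77, adjusted p = 0.0632). Over the 3 pairs, 11 of 27 member tests were called (12.1% of all gene tests in these pairs were), 4 higher and 7 lower; without the section 1 sums or the section 2 sums there were 2 higher.

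Subunit balance was described as each gene's share of its family's UMIs in a group, with exact 95% binomial intervals that cover counting error only. Gria1 made up 49.1% of AMPA subunit UMIs in CA1 spots of section 1 (46.9 to 51.3) and 51.2% in section 2 (48.9 to 53.5). In thalamus spots its share was 28.3% and 34.0%. CA3 differed between the sections, 39.4% against 49.2%, and these intervals did not overlap. Over the tested groups Gria2 had mean shares between 31.5% in brainstem and 37.7% in deep isocortex. Mean Gria3 shares in these groups ran from 13.8% in the dentate gyrus to 24.8% in thalamus.

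The share of Gria4 was 3.07% and 3.16% in dentate gyrus spots and 3.21% and 3.71% in CA1 spots. It was 13.4% and 10.5% in thalamus, 14.0% and 12.3% in brainstem and 13.6% and 11.6% in fibre tract spots. Each of these last 3 lay above the share of every cortical and hippocampal group in both sections. In the kainate family, Grik5 held, over the tested groups, between 54.8% (thalamus, section 1) and 71.7% (CA1, section 2). Grik3 held 24.7% and 16.1% in deep isocortex against 6.93% and 7.73% in CA3, and Grik4 15.6% and 14.0% in CA3 against 5.32% and 6.47% in deep isocortex. Grik1 held 11.5% and 11.3% in hypothalamus and 12.7% and 10.0% in thalamus.

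**Figure D4:**
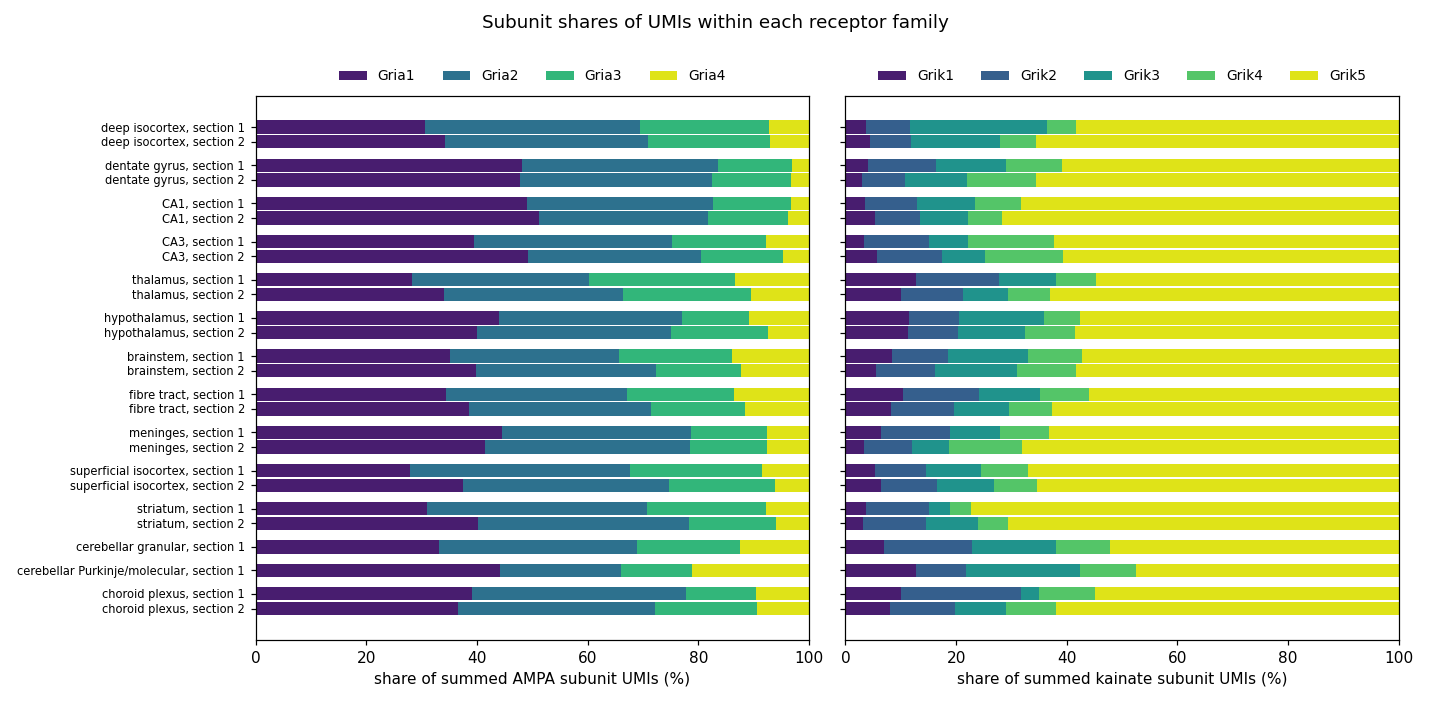
Share of each subunit (x axis, percent of summed UMIs) in the AMPA family (left) and in the kainate family (right), 1 bar per spot group and section. The Gria4 segment is widest in the cerebellar Purkinje and molecular layer spots (21.2%) and narrowest in dentate gyrus spots (near 3%), and the Grik3 segment is widest in deep isocortex in section 1.

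The AMPA genes together had 1180 and 1064 CPM in CA1 spots, 1091 and 989.8 CPM in the dentate gyrus and 384 and 428 CPM in the fibre tract. Over the tested groups the kainate genes together were flatter, between 147 and 297 CPM in section 1 and between 155 and 334 CPM in section 2. There were 5.44 AMPA UMIs for each kainate UMI in CA1 spots of section 1 and 3.63 in section 2. Deep isocortex had the lowest ratio of the tested groups, 2.44 and 2.03. The ratio was lower in section 2 than in section 1 in every tested group.

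Among the groups with no test, the cerebellum stood apart. In its Purkinje and molecular layer spots of section 1, Gria4 had 206 CPM (180 to 235), with 68.8 CPM in the granular layer spots and at most 68.8 CPM in any tested group. Gria1 reached 429 CPM, and Gria2 held 21.9% of AMPA UMIs, below its share in every other group. Grik3 had 43.4 CPM on 48 UMIs and Grik1 27.1 CPM on 30 UMIs. These values come from 60 spots of 1 section and have no replicate.

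Striatum spots had the highest Grik5 level of section 1, 286 CPM on 41 UMIs (205 to 388); in section 2 they had 215 CPM, next to 219 CPM in the dentate gyrus. Grik5 made up 77.4% and 70.6% of their kainate UMIs. Choroid plexus is an epithelium without neurons, and its spots had the following levels: 131 and 140 CPM for Gria1, 129 and 136 CPM for Gria2 and 66.5 and 113 CPM for Grik5. Excitatory neuron markers summed to 953 and 2112 CPM in the same spots. The part of neuronal RNA in the subunit levels there was not tested.

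Across the 18 sums, each section centred on its mean, Gria1 and Gria2 followed each other (Pearson r = 0.919 on log2 CPM) and Gria1 and Gria4 ran opposite (r = -0.701). The sums share libraries and groups, so these are descriptions with no p. Grik5 followed Gria2 (r = 0.887), and Grik4 was closest among members to Grik2 (r = 0.634). Among the other genes tested at an average log2 CPM of 5 or more, 5548 or 5549 for each member, the profile most like that of Gria1 was Scn3b (r = 0.967), a sodium channel beta subunit, and that most like Gria2 was Chst1 (r = 0.982), a sulfotransferase. Gria3 was nearest to B4galnt1 (r = 0.933), Gria4 to Ndufs7 (r = 0.906) and Grik5 to Strn4 (r = 0.958). The likeness was lower for the sparser genes: Gfra2 for Grik3 (r = 0.893), Prdm8 for Grik4 (r = 0.855), Banp for Grik2 (r = 0.822) and 2900052N01Rik for Grik1 (r = 0.802).

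AMPA receptors work with auxiliary subunits that change their traffic and gating: TARPs (Cacng genes), cornichons (Cnih2, Cnih3), GSG1L and the Shisa proteins. In CA1 spots 4 of the 13 listed genes were higher and 1 lower, where 10.1% of all genes were called higher and 8.38% lower. The median log2 fold change of the list was -0.16 against -0.01 over all genes. Shisa6 (1.59 ± 0.15), Cnih2 (1.34 ± 0.08), Shisa7 (1.15 ± 0.11) and Cacng3 (0.67 ± 0.11) were the higher ones. Cnih2 had 475 and 483 CPM in CA1 spots, 347 and 342 CPM in the dentate gyrus and 95.5 and 133 CPM in the fibre tract. Its order over CA1, dentate gyrus and fibre tract was that of Gria1, but over all tested groups the orders differed. Thalamus spots had more Cnih2 than meninges spots (177 and 178 against 123 and 155 CPM). For Gria1 thalamus spots had less (141 and 176 against 207 and 188 CPM).

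Dentate gyrus spots had 7 of 13 higher and none lower (median 0.34), among them Cnih3 (1.13 ± 0.12), Shisa7 (0.92 ± 0.11) and Gsg1l (0.81 ± 0.15), and 4 of the 7 were kept without section 1. Thalamus spots had 7 higher and 3 lower (median 0.41), and without section 1 all 7 and 1 of the 3 were kept. Cacng5 led the higher ones (1.59 ± 0.13), with 60.7 and 43.5 CPM against 11.5 and 13.9 CPM in deep isocortex. Deep isocortex had 3 higher, led by Cacng3 (0.93 ± 0.09), and 3 lower, led by Shisa6 (-1.35 ± 0.18); without section 1 only these 2 were kept. Shisa8 was higher in fibre tract (1.37 ± 0.23) and meninges spots (0.97 ± 0.29), where 5 other listed genes were lower in each. Without section 1 the Shisa8 call in meninges was lost (0.68, adjusted p = 0.634) and 1 of the 5 lower calls there was kept; without section 2, 3 of the 5 in the fibre tract were. CA3 had 2 of 13 higher, Shisa6 (1.13 ± 0.15) and Cnih2 (0.57 ± 0.09). Hypothalamus had 2, Cacng8 (1.02 ± 0.28) and Cacng4 (0.52 ± 0.13), both lost without section 2 (1.08 and 0.35). Cacng8 was sparse in every tested group, between 1.92 and 10.2 CPM. Of all genes, 13.4% were called higher and 11.3% lower in the dentate gyrus, and 12.6% and 11.5% in thalamus. In deep isocortex these shares were 11.3% and 9.62%, in fibre tract 16.9% and 15.4% and in meninges 15.8% and 11.9%. In CA3 they were 3.47% and 0.457%, and in hypothalamus 5.11% and 4.17%.

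Neto1, an auxiliary subunit of kainate receptors, was higher in CA3 (0.69 ± 0.13), dentate gyrus (0.67 ± 0.14) and deep isocortex (0.59 ± 0.11) and lower in thalamus (-0.67 ± 0.13), brainstem (-0.48 ± 0.16) and fibre tract (-0.69 ± 0.16). Its level was 40.6 and 53.5 CPM in CA3 spots and 16.2 and 23.9 CPM in thalamus spots. Leaving out section 1 ended its calls in dentate gyrus (0.36), deep isocortex (0.50) and brainstem (-0.22), and leaving out section 2 those in CA3 (0.68, adjusted p = 0.0782) and fibre tract (-0.66, adjusted p = 0.0598). Neto2, the other kainate auxiliary gene, was called in none of the 9 groups by edgeR or DESeq2, with 3 at an unadjusted p under 0.05 in edgeR.

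**Figure D5:**
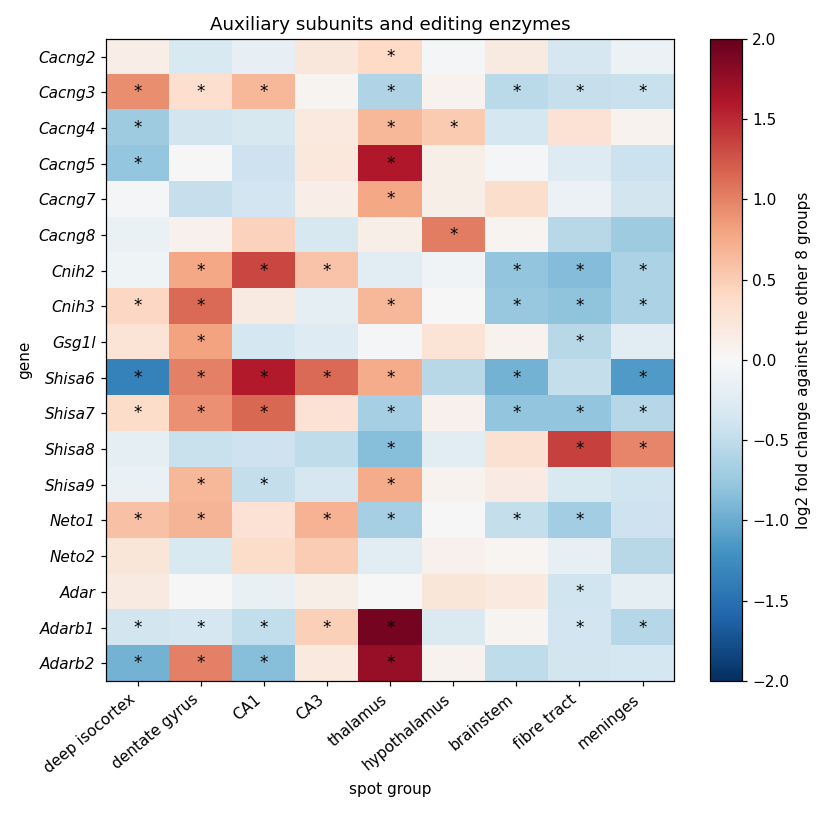
Log2 fold change (colour; red is higher, blue lower) of auxiliary subunit and editing enzyme genes (y axis) in the 9 tested groups (x axis) against the mean of the other 8; an asterisk marks an edgeR adjusted p under 0.05. The darkest red cells are Adarb1 and Adarb2 in thalamus, followed by Cacng5 in thalamus and Shisa6 in CA1.

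Adarb1 encodes ADAR2, the enzyme that edits the GluA2 RNA. It had 577 and 484 CPM in thalamus spots against 111 and 136 CPM in CA1 spots, and the next highest group, CA3, had 257 and 191 CPM. Adarb1 was higher in thalamus by 1.91 ± 0.07 (adjusted p = 2.6e-22) and in CA3 by 0.48 ± 0.08, the second lost without section 1 (0.25, adjusted p = 0.482). Adarb2, whose product has no known editing activity, was also higher in thalamus (1.74 ± 0.12). UMI counts do not show whether a transcript was edited. Grid1, a delta receptor gene, was called higher in thalamus (0.31 ± 0.11) and lower in the fibre tract (-0.62 ± 0.16); the first was lost without section 1 or section 2 (0.35 and 0.27) and the second without section 2 (-0.49).

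The assembly and trafficking list had 9 genes and the list of scaffolds and binding partners 15. The shares of all genes called higher and lower in these groups are those given with the AMPA auxiliary subunits. In the dentate gyrus 7 of the 15 partners were higher and 1 lower (median 0.38), led by C1ql2 (3.47 ± 0.11), Lrrtm4 (1.71 ± 0.16) and Nptx1 (1.56 ± 0.08). C1ql2 is a secreted protein of mossy fibre synapses that binds GluK2 and GluK4, and Nptx1 is a pentraxin that gathers AMPA receptors. In CA3 spots 2 partners were higher, Nptxr (1.19 ± 0.07) and Nptx1 (1.02 ± 0.08). Thalamus spots had 3 partners higher, led by Lrrtm1 (1.54 ± 0.10), and 8 lower, led by Nptx1 (-1.19 ± 0.10); without section 1, 2 and 4 of them were kept. Among trafficking genes, Olfm1 was higher in the dentate gyrus (1.45 ± 0.06) and CA3 (0.65 ± 0.06). It was also higher in CA1 (0.52 ± 0.06) and deep isocortex (0.47 ± 0.06). Olfm1 was lower in brainstem (-0.70 ± 0.07) and fibre tract (-0.77 ± 0.07), among others. Frrs1l was higher in CA1 (0.88 ± 0.09) and lower in fibre tract (-0.78 ± 0.11), among others. Olfm3 was higher in thalamus (1.34 ± 0.10) and lower in the dentate gyrus (-0.75 ± 0.18). Of the 9 trafficking genes, 4 were higher and 3 lower in the dentate gyrus. In thalamus 5 were higher and 2 lower, and in the fibre tract 0 and 6. Deep isocortex had 10 of 15 partners higher and 1 lower (median 0.33), with Nptx1 at 0.87 ± 0.08, and 4 of the 10 were kept without section 1 and 6 at a score of 0.7. In the fibre tract 8 of 15 were lower and 1 higher, and in meninges 8 lower; without section 1, 4 of the 8 were kept in the fibre tract and 0 in meninges (edgeR).

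Of the 56 member calls over groups and pairs, 20 held in every alternative that could be fitted. They comprised 5 for Gria1, 6 for Gria2, 4 for Gria3, 1 for Gria4, 2 for Grik3 and 2 for Grik4. No call of Grik1, Grik2 or Grik5 was among them.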

How the data were processed

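Gene counts per spot were deposited by the authors as filtered matrices of raw UMI counts. Per the file headers they were made with Space Ranger 1.2.2 for section 1 and 2.0.1 for section 2; the submitters' processing notes name 2.0.1 and mm10 for both. Neither names an annotation release, and spot positions were not used.

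Spots with 500 or more UMIs were scored on 16 anatomical marker lists (score above 0.5 and 0.1 above the next list), and counts were summed per group and section. The 86 defining markers were left out of the tests. edgeR 4.0.16 (R 4.3.3) with TMM factors between 0.923 and 1.06 and the quasi-likelihood test was fitted to 18 sums with a term for the section, because all groups of 1 section share a slide and its processing. Correlations used log2 CPM with a prior count of 2. DESeq2 1.42.0 was an alternative. No doublet caller was run on spots. The fit was run on simulated sums with known changes in the dentate gyrus alone. These had the same spread for every gene and no difference between sections, so that run cannot vouch for the calls given here.

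Members and lists were chosen with earlier results of these data known. All members are named in every group; auxiliary, editing and delta receptor genes may all be named; from the other 2 lists, the 3 largest called changes per group at an average log2 CPM of 4 or more; and the most similar profiles. Some genes under this rule are not reported here. Shisa7, Cnih2 and Cacng3 in the CA3 against CA1 comparison belong to the auxiliary list.

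Intervals are exact 95% intervals (Poisson for CPM, Clopper-Pearson for shares) and cover counting error only.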

Additional observations from a re-analysis of the deposited data

How the results depend on the processing

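Of the 56 member calls, 20 held in every alternative. The AMPA genes had 12 higher and 14 lower calls and the kainate genes 11 and 8. A score of 0.7 gave 7 higher and 7 lower AMPA calls and 7 higher kainate calls; a lead of 0.25 gave 7 lower AMPA and 6 higher kainate calls. Both lost hypothalamus, brainstem and meninges from the tested groups. Without the fibre tract and meninges groups there were 7 lower AMPA and 5 lower kainate calls. That setting and leaving out the failed marker lists, which lost brainstem, were chosen after seeing the data. With no replicate block, that is, without pairing the groups of a section, the kainate genes had 5 higher and 2 lower calls. The pairs then had 0 higher calls of 4 in edgeR (6 of 27 tests higher at an unadjusted p under 0.05) and 4 lower of 7; DESeq2 gave 2 higher. Auxiliary and partner genes had 55 lower calls with no replicate block, against 92. Over all genes the 12081 higher and 10041 lower calls became 7081 and 4280 with no replicate block and 7014 and 5561 without the fibre tract and meninges groups; DESeq2 gave 6179 lower.

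Leaving out the section 1 or section 2 sums gave 7 to 11 lower and 8 to 9 higher AMPA calls, 3 to 5 lower and 7 to 8 higher kainate calls, and 2 higher pair calls either way. Auxiliary and partner genes had 32 to 79 lower calls, and all genes 5559 to 8745 higher and 3165 to 6730 lower. Lrrtm2 in meninges was -0.926 without section 2 and 0.0425 without section 1. Signs also turned for Gria3 in thalamus (-0.00978 at a lead of 0.25), Frrs1l (-0.00996 at a score of 0.7) and Nsf in thalamus (-0.0231 without the fibre tract and meninges groups), Dlg3 in deep isocortex (-0.0196 at a score of 0.7, -0.0153 at a lead of 0.25) and Nptxr there (-0.0111 at a score of 0.7). The Gria4 share in dentate gyrus spots moved from 3.11% to 2.87% (score), 2.95% (lead) and 3.02% (failed lists left out). The Gria2 share in thalamus moved from 32.2% to 31.6% (score), the Grik4 share in CA3 from 14.8% to 16.4% (lead) and the Grik1 share in hypothalamus from 11.4% to 10.1% (failed lists left out). The cause of these changes was not tested. Some settings also held fewer groups or sums. Where a section was left out, this was only the sum of the group under test, or of the first group of a pair. Grik1 to Grik4 had the fewest UMIs of the members, and the part of depth in their calls was not tested.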
